A study of Homo sapiens with 9 samples.

Results

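The cyclin-dependent kinase (CDK) inhibitors and the subunits of the ubiquitin ligase that destroys p27 were followed in T47D, an established luminal breast cancer cell line that carries progesterone receptor. The members are 9 genes chosen by name: the CIP/KIP inhibitors CDKN1A, CDKN1B and CDKN1C, the INK4 inhibitors CDKN2A, CDKN2B, CDKN2C and CDKN2D, and the p27 ligase subunits SKP2 and CKS1B. A probe set with a single gene symbol measured 8 of the 9 genes, on 10 of the 21214 probe sets tested. The array names 18417 genes in this way, and the RNA of CDKN2C was not analysed here. Affymetrix human gene arrays measured RNA on 9 samples, 3 in each of 3 groups. All cells carried a retroviral vector (pHUSH) from which doxycycline switches on a short hairpin RNA against the transcription factor ELF5. Whether the cells were a clone or a pool is not stated in the labels used here. The first group received 10 nM of the synthetic progestin ORG2058, which the labels call progesterone, with 0.1 µg/ml doxycycline for 4 days. The second received 10 nM ORG2058 alone for 4 days, and the third ethanol vehicle, for which no time is given. Each sample was a pool of cells from 3 wells, and the medium of all groups contained insulin and fetal bovine serum. No group received doxycycline without progestin or with another hairpin, so an effect of doxycycline itself and of the hairpin cannot be told apart.

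CDK inhibitors restrain the kinases that drive a cell from the first gap phase into DNA synthesis. The CIP/KIP proteins p21, p27 and p57 bind CDK2 and CDK4 complexes with their cyclins, whereas the INK4 proteins bind CDK4 and CDK6 and keep D cyclins away from them. The level of p27 is set largely by destruction: the F-box protein SKP2, with its small partner CKS1 from the gene CKS1B, recognises phosphorylated p27 and hands it to the SCF ubiquitin ligase. Progestins are known to stop breast cancer cells in the first gap phase after an initial burst of division, and p27 and p18 are among the inhibitors linked to this arrest. The arrays measure RNA and say nothing of protein level or complex formation.

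The promoters of the 3 members whose regulation is set against each other below, CKS1B and SKP2 of the ligase and CDKN1B as its substrate, are shown 5′ to 3′ as the 250 bases before the annotated start in RefSeq (GRCh38.p14). Capitals mark the CCAAT box (letters CCAAT) and the cell cycle homology region (letters TTTGAA), found in many genes that are active in dividing cells. CKS1B is at chr1:154974431-154974680, SKP2 at chr5:36151861-36152110 and CDKN1B at chr12:12717118-12717367, each on the plus strand.
CKS1B: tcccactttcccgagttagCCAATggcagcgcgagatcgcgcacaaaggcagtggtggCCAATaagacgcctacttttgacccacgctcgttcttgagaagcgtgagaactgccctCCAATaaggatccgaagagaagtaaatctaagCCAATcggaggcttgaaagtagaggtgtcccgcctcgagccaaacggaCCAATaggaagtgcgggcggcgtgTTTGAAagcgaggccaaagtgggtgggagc
SKP2: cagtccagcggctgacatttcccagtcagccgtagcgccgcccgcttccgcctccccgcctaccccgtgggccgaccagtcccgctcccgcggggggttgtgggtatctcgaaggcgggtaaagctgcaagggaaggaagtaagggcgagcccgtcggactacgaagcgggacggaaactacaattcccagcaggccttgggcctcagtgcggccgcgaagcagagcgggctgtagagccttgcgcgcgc
CDKN1B: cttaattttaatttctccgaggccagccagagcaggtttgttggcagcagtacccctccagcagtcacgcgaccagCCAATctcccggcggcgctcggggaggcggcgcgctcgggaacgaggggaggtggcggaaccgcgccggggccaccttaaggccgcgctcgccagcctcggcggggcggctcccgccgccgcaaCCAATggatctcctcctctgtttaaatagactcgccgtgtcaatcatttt
Both strands were searched and a match is a description only. The CKS1B window held 5 CCAAT boxes and 1 cell cycle homology region, 30 to 25 bases before the start. CDKN1B held 2 CCAAT boxes and no TTTGAA, and SKP2 had neither. Of all 35116 RefSeq promoter windows, 32% held CCAAT and 13.3% TTTGAA. Among the 11 windows of the 8 members with a promoter window (CDKN2A had 2, CDKN2C 3), 4 held CCAAT and 1 TTTGAA. These 8 are not the 8 genes measured on the arrays: they include CDKN2C and leave out CDKN1C, whose promoter was not searched. Another 6 motifs gave no match in any of the 11 windows. They were the E2F sites TTTGGCGC, TTTGGCGG, TTTCCCGC and TTTCGCGC (2.83% of all windows hold at least 1 of them), the GC box GGGGCGGGG (15.1%), the ETS site CCGGAAGT (3.42%), the FOXO site GTAAACA (2.98%), the progesterone receptor half-site AGAACA (12.4%) and the progesterone receptor palindrome, searched in a looser spelling than the half-site (0.327%).

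The arrays were alike within groups, with rank correlations of 0.989 to 0.995 over the tested probe sets, and the median log2 signal lay between 7.19 and 7.28 on every array. ELF5, the target of the hairpin, was at 10.44, 10.46 and 10.35 with progestin plus doxycycline, 11.31, 11.23 and 11.31 with progestin, and 10.26, 10.21 and 10.05 with vehicle (log2 signal). It was thus higher with progestin than with vehicle (log2 change 1.11, adjusted p = 2.06e-05) and lower once doxycycline was added (-0.87, adjusted p = 0.029), as labelled. The second call depends on the processing. In 9 of 17 alternatives no probe set was called lower with doxycycline added, so ELF5 did not pass there either. Of 10 markers of luminal breast epithelium all were measured, with group means from 8.38 to 13.17 and a summed linear signal of 36498 to 38895 with progestin plus doxycycline, 36605 to 37128 with progestin and 35613 to 36934 with vehicle. The 13 measured markers of stromal, endothelial and immune cells summed to 1564 to 1793, 1629 to 1755 and 1477 to 1696, and the 4 measured basal and myoepithelial markers to 488 to 558, 508 to 574 and 502 to 569, in the same group order. The sums hide single markers that changed. With progestin against vehicle 2 of the 13 stromal, endothelial and immune markers were called higher and 1 lower: the endothelial CDH5, which is bright in this line at a log2 signal of 9.38 with progestin and 9.08 with vehicle, rose by 0.30 and PECAM1 by 0.34, while the collagen gene COL1A1, at 8.17 and 8.60, had a change of -0.42. Of the 4 basal markers the keratin KRT5 rose by 0.61, and by 1.03 with progestin plus doxycycline against vehicle, and ACTA2 had a change of -0.30 with progestin. Of the 10 luminal markers 2 were higher, KRT19 (0.46) and SPDEF (0.60), and 3 lower, PGR (-2.28), ESR1 (-0.50) and GATA3 (-0.51). The dimmest of the 13 were the leukocyte marker PTPRC, at 3.06 with progestin plus doxycycline, 3.57 with progestin and 3.39 with vehicle, and the stromal LUM, at 2.39, -1.66 and 3.26 in the same order. The part of these markers in the results below was not tested. The labels name no culture or array batch, so a batch that coincides with a group cannot be told apart from the treatment. The p-values set a difference between groups against the spread within the groups of these samples only.

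Progestin against vehicle asked how the hormone changes RNA of the inhibitors and of the p27 ligase. The RNA for p27 rose 1.43-fold, while the ligase subunit SKP2, which targets p27 for destruction, fell 2.20-fold. The INK4 gene CDKN2A fell 1.45-fold and its chromosomal neighbour CDKN2B rose 1.31-fold. In all 2 of 8 measured members rose and 2 fell past an adjusted p of 0.05, where 29.0% of all 21214 probe sets passed (13.4% higher, 15.6% lower). The progestin and vehicle arrays did not overlap for 7 of the 8 members, against 42.3% of all probe sets. The median log2 change of the 8 was -0.016, against 0.017 over all probe sets. Adjusted p-values come from limma over all tested probe sets, and SE is the standard error in that model. An unadjusted p under 0.05 was reached by 6 of 8 members and by 39.0% of all probe sets. The smallest p open to an exact two-sided permutation test at this group size is 0.1, so none was used for calls.

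**Figure D1:**
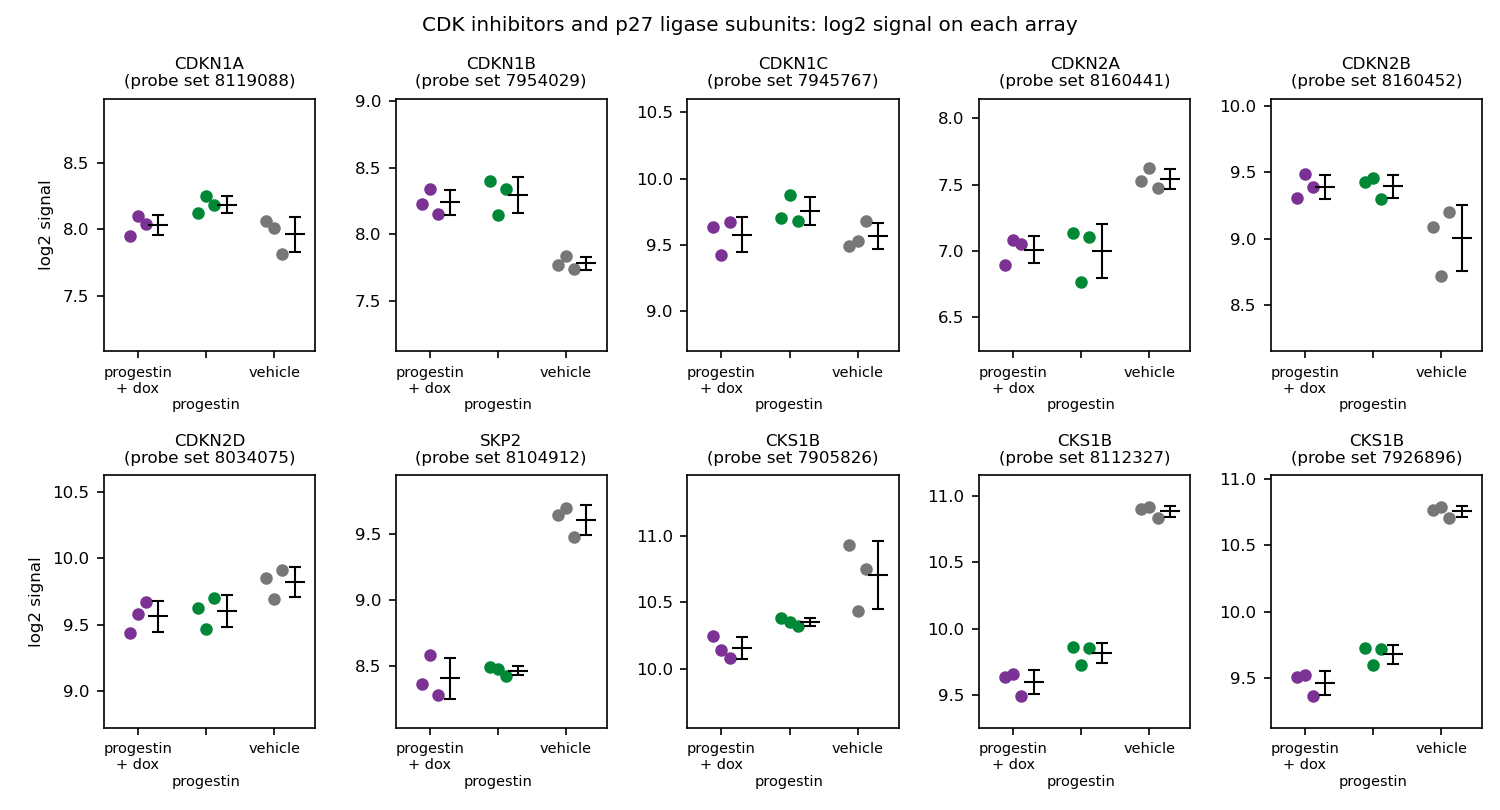
Log2 signal (vertical axis; each panel spans the same number of units) on each array for the 10 probe sets of the 8 measured genes, with points for single arrays and bars for the mean ± SD of 3 arrays; columns are progestin plus doxycycline (purple), progestin (green) and vehicle (grey). SKP2 and the last 2 CKS1B panels show both progestin groups far below vehicle, and CDKN1B shows them above it.

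Among the CIP/KIP genes, CDKN1B encodes p27, the inhibitor of CDK2 complexes. Its log2 signal was 8.40, 8.14 and 8.34 in progestin cells, against 7.77, 7.83 and 7.74 in vehicle cells. Every progestin array lay above every vehicle array, by 0.31 at the closest pair. The log2 change was 0.51 (SE 0.09, 95% interval 0.31 to 0.72, adjusted p = 0.00317). It passed the threshold under all 17 alternatives run, with changes from 0.46 to 0.59.

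CDKN1A, which encodes p21, the inhibitor induced by p53, had 8.12, 8.25 and 8.18 in progestin cells and 8.06, 8.01 and 7.81 in vehicle cells (log2 signal). The groups did not overlap, yet the gap was small beside the spread: log2 change 0.22, SE 0.09, interval 0.02 to 0.42, adjusted p = 0.0924. CDKN1C, which encodes p57, an imprinted inhibitor, had 9.70, 9.87 and 9.68 in progestin cells and 9.49, 9.53 and 9.68 in vehicle cells. The lowest progestin array and the highest vehicle array were nearly equal. Its log2 change was 0.19 with an interval of -0.04 to 0.41 (adjusted p = 0.2).

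The INK4 genes differed among themselves. CDKN2A encodes p16 and, from another first exon, ARF, which restrains MDM2, and the annotation of its probe set lists transcripts of both, so they were not resolved. It had 7.13, 6.77 and 7.11 in progestin cells, against 7.53, 7.62 and 7.47 in vehicle cells (log2 signal). All progestin arrays were lower, with progestin replicate 2 the lowest. The log2 change was -0.54 (SE 0.11, interval -0.80 to -0.28, adjusted p = 0.00795), and the call held under all 17 alternatives. This was the dimmest of the 8 members, and the only one whose mean lay below the median of all tested probe sets.

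CDKN2B, which encodes p15, an inhibitor known to respond to TGF-beta, had 9.43, 9.45 and 9.30 in progestin cells and 9.09, 8.72 and 9.20 in vehicle cells (log2 signal). The groups did not overlap, and vehicle replicate 2 stood below the other vehicle arrays. The log2 change was 0.39 (SE 0.13, interval 0.10 to 0.68) with an adjusted p of 0.0485. The call was lost with any 1 array left out except vehicle replicate 3, and without vehicle replicate 2 the change was 0.25 (adjusted p = 0.105). CDKN2D, which encodes p19, had 9.63, 9.47 and 9.71 in progestin cells and 9.85, 9.69 and 9.92 in vehicle cells. These groups overlapped by a narrow margin, and the log2 change was -0.22 (interval -0.45 to 0.01, adjusted p = 0.146).

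SKP2, the F-box protein that recognises p27, had the largest change of the probe sets that stood for the 8 genes. Its log2 signal was 8.50, 8.48 and 8.43 in progestin cells, against 9.64, 9.69 and 9.47 in vehicle cells. The gap between the groups was wider than the range within either. The log2 change was -1.13 (SE 0.10, interval -1.36 to -0.91, adjusted p = 6.2e-05), and it lay between -1.20 and -1.09 over all alternatives.

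CKS1B, the SKP2 cofactor, is the annotated gene of 3 probe sets that did not give the same size of change. The probe set of highest mean, 7905826, stands for the gene by the rule used. It had 10.38, 10.35 and 10.32 in progestin cells and 10.93, 10.43 and 10.75 in vehicle cells (log2 signal). Progestin arrays were lower without overlap, but vehicle replicate 2 lay close to them: log2 change -0.35, SE 0.12, interval -0.63 to -0.07, adjusted p = 0.0625. Without vehicle replicate 2 the change was -0.49 (adjusted p = 0.00787).

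On probe set 8112327 the values were 9.86, 9.73 and 9.86 in progestin cells, against 10.90, 10.91 and 10.83 in vehicle cells. There the vehicle arrays lay close together and about 1 log2 unit above the others, and vehicle replicate 2 did not stand apart. The log2 change was -1.07 (SE 0.08, adjusted p = 2.15e-05). Probe set 7926896 gave -1.08 (SE 0.07, adjusted p = 1.96e-05). These 2 probe sets had a correlation of 0.99997 over the 9 arrays and are counted here as 1 measurement. With 7905826 they correlated at 0.855 and 0.853 over the same arrays. The annotation lists 4 accessions for 7905826, and all 4 are among the 11 listed for each of the others. RefSeq names 7 CKS1B pseudogenes. Whether any of the probe sets reads them, besides CKS1B or in its place, was not tested. The mean of the 3 probe sets, fitted in limma, gave a log2 change of -0.83 (adjusted p = 8.4e-05). That mean counts the measurement shared by 8112327 and 7926896 2 times, so it leans to their larger change.

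Adding doxycycline to progestin asked whether the inhibitors follow ELF5 when its rise is held down. Of the 8 members 0 passed the threshold in limma, 0 had an unadjusted p under 0.05, and 0 passed under any alternative. The background was low as well, with 0.0189% of probe sets called (0.00943% higher and 0.00943% lower) and 14.0% at an unadjusted p under 0.05. No probe set at all was called lower in 9 of 17 alternatives, and none higher in 7 of 17. The lack of calls under the alternatives therefore says little about the members. The arrays did not overlap for 3 of 8 members, against 21.2% of all probe sets.

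CDKN1B had 8.23, 8.34 and 8.15 with progestin plus doxycycline and 8.40, 8.14 and 8.34 with progestin (log2 signal). The groups were interleaved. The log2 change was -0.05 with an interval of -0.26 to 0.15, which leaves out a loss of the whole 0.51 gained with progestin. SKP2 had 8.37, 8.58 and 8.28 with doxycycline added and 8.50, 8.48 and 8.43 without, again interleaved, for a change of -0.06 (interval -0.28 to 0.17).

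CDKN2A had 6.89, 7.08 and 7.06 with progestin plus doxycycline, and its change was 0.0069 (interval -0.25 to 0.27). For CDKN2B the values were 9.30, 9.48 and 9.39, with a change of -0.0018 (interval -0.29 to 0.29). CDKN2D had 9.44, 9.58 and 9.67 and a change of -0.04 (interval -0.27 to 0.19). All 3 INK4 genes thus overlapped with the progestin arrays, and intervals this wide do not show equality.

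The 3 members without overlap were all lower with doxycycline added. CDKN1A had 7.95, 8.10 and 8.04, and its change was -0.16 (interval -0.36 to 0.04, adjusted p = 0.471). CDKN1C had 9.63, 9.43 and 9.67, and its change was -0.18 (interval -0.40 to 0.05, adjusted p = 0.47). CKS1B on probe set 7905826 had 10.24, 10.14 and 10.08, and its change was -0.20 (interval -0.48 to 0.08, adjusted p = 0.524). The other CKS1B probe sets, both without overlap, gave -0.22 each (unadjusted p = 0.0194 and 0.0195, adjusted p = 0.27 for both).

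**Figure D2:**
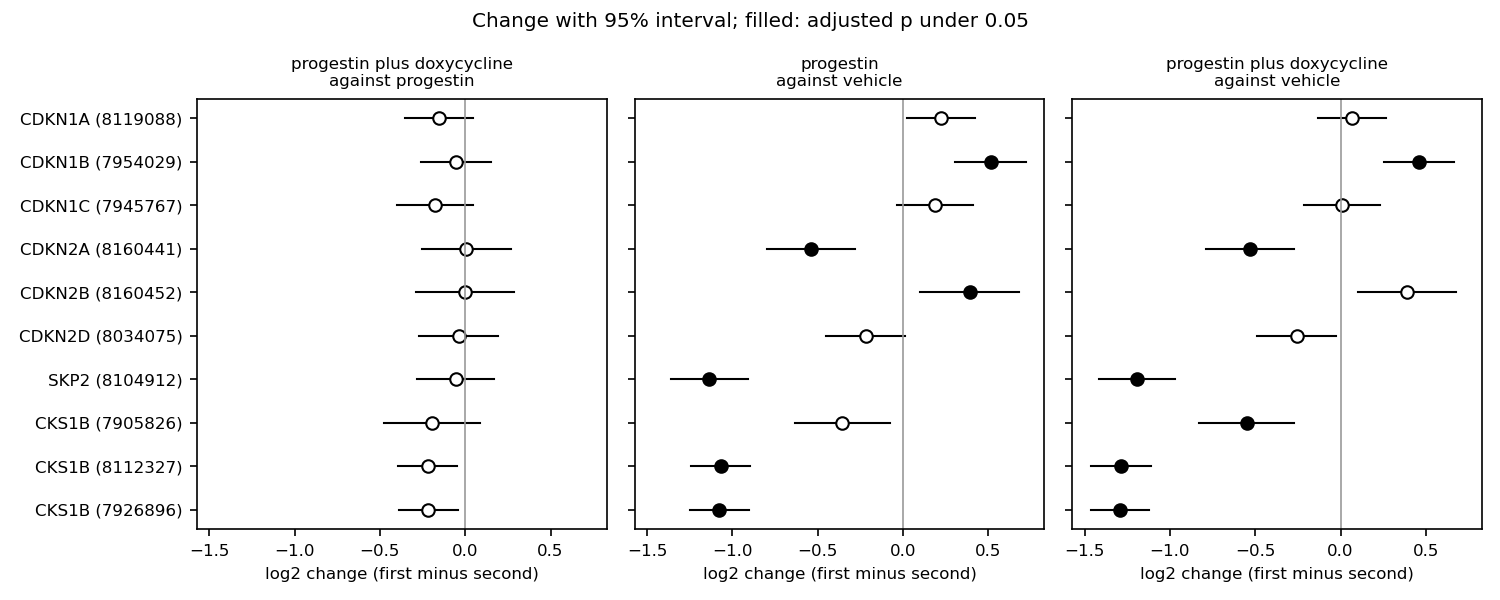
Log2 change (horizontal axis, first group minus second) with its 95% interval for each of the 10 probe sets, in panels for progestin plus doxycycline against progestin, progestin against vehicle and progestin plus doxycycline against vehicle; filled points have an adjusted p under 0.05. The first panel has no filled point, and in the others SKP2 lies at -1.13 and -1.19 and CDKN1B at 0.51 and 0.46.

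Progestin plus doxycycline against vehicle gave the hormone response while the hairpin was induced; it shares its arrays with the other comparisons and is no independent evidence. Of 8 members 1 rose and 3 fell, where 15.6% of probe sets were called higher and 12.5% lower (28.1% in all). The groups did not overlap for 6 of 8 members, against 41.8% of all probe sets, and 37.0% of all probe sets had an unadjusted p under 0.05. CDKN1B rose by 0.46 (SE 0.09, adjusted p = 0.00546). SKP2 had a log2 change of -1.19 (SE 0.10, adjusted p = 4.33e-05) and CDKN2A of -0.53 (SE 0.11, adjusted p = 0.00817). CKS1B passed on each of its probe sets, at -0.55 on 7905826 (adjusted p = 0.0101) and at -1.29 on both others. The change of CDKN2B was 0.39 with an adjusted p of 0.0507, which did not pass. CDKN2D had a change of -0.26 (adjusted p = 0.0959), CDKN1A of 0.07 (interval -0.13 to 0.27) and CDKN1C of 0.01 (interval -0.21 to 0.23).

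Other genes of the p27 and p21 degradation machinery were less uniform than SKP2. Under progestin against vehicle 6 of 18 measured genes fell and 0 rose (median log2 change -0.07), where 15.6% of all probe sets were called lower and 13.4% higher. These shares, and the 14.0% with an unadjusted p under 0.05 when doxycycline is added, are the background for every list. CDC20, an activator of the anaphase-promoting complex, had a change of -1.86 (SE 0.10, adjusted p = 4.65e-06). DTL, which directs p21 to the CUL4 ligase, had -1.45 (SE 0.08, adjusted p = 7.13e-06), CKS2, the paralogue of CKS1B, -1.16 (SE 0.08, adjusted p = 1.75e-05), and UBE2R2, a ubiquitin-conjugating enzyme of SCF ligases, -0.39 (SE 0.08, adjusted p = 0.00656). The SCF scaffold CUL1 and UBAC1, a subunit of another p27 ligase, were the remaining genes that fell (-0.30 and -0.39). The core subunits SKP1 (0.03) and RBX1 (0.04) did not pass. With doxycycline added 0 of the 18 passed, and 5 had an unadjusted p under 0.05.

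Of 16 cyclins, CDKs and their activators on which the inhibitors act, 3 rose and 7 fell with progestin (median -0.17). CCNA2, the cyclin A of S phase, changed by -1.69, CDK1 by -1.43, the CDK-activating phosphatase CDC25A by -1.42 and CCNE2, a cyclin E, by -1.28 (SE 0.08 to 0.09, adjusted p from 2.72e-06 to 1.92e-05). The kinases that the INK4 proteins bind went opposite ways, CDK4 at -0.71 and CDK6 at 0.93. Their signals were unlike: CDK4 was at 9.71 with progestin and 10.42 with vehicle. CDK6 was dim, at 5.98 and 5.05, below the median of the tested probe sets on every array. CDK2, which p27 inhibits, fell (-0.93), as did the D cyclin CCND1 (-0.75). CDK6, another D cyclin, CCND3 (0.66), and the kinase chaperone CDC37 (0.47) were the 3 that rose. All 12 proliferation markers fell (median -1.47), TYMS the most, at -1.90; TOP2A was at -1.73, BUB1 at -1.81 and FOXM1 at -1.42. CDC20 and CCNA2 stand in 2 lists each. SKP2 thus fell in the same samples as these genes, and the part of fewer cycling cells in that was not tested: in bulk samples fewer cells of a kind and less RNA per cell cannot be told apart. With doxycycline added 0 of the 16 and 0 of the 12 passed in limma, and 4 and 8 had an unadjusted p under 0.05. The 12 markers had a median of -0.17 then, with 11 negative. The exception was MKI67, which was higher by 0.21 (limma, unadjusted p = 0.0346, adjusted p = 0.323) and is 1 of those 8.

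Regulators of the CIP/KIP genes went both ways: 9 of 24 rose and 5 fell with progestin (median 0.04). KLF4, which activates CDKN1A, rose by 2.64 (SE 0.10, adjusted p = 8.24e-07), and the vitamin D receptor VDR by 1.64 (SE 0.09, adjusted p = 4.46e-06). Of the FOXO factors, known activators of CDKN1B, FOXO4 rose by 0.83 and FOXO1 by 0.41, while FOXO3 had a change of 0.47 (SE 0.20, adjusted p = 0.115). E2F1, which drives genes of S phase, was at -1.03 (adjusted p = 2.48e-05) and BRCA1 at -0.85 (adjusted p = 0.000371), both lower. The others that fell were TFAP4 (-0.66), SMAD3 (-0.51) and TCF3 (-0.46). Among those that did not pass were MEN1 (0.02), SP1 (-0.01) and KMT2A (-0.08). With doxycycline added 0 of 24 passed and 3 had an unadjusted p under 0.05, a share near the 14.0% of all probe sets.

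Of 17 regulators of the INK4 genes 4 rose and 2 fell (median 0.14), a share called near the 29.0% of all probe sets. The 2 that fell were the Polycomb subunits EZH2 (-0.72, SE 0.11, adjusted p = 0.00201) and SUZ12 (-0.48, SE 0.08, adjusted p = 0.00322), which are known to silence the CDKN2A locus. JUNB, an AP-1 factor, rose by 1.37 (SE 0.08, adjusted p = 1.07e-05), ETS2 by 0.73 (SE 0.12, adjusted p = 0.00206), TBX3, a repressor of ARF, by 0.37 and the Polycomb protein RING1 by 0.34. With doxycycline added 0 of 17 passed and 1 had an unadjusted p under 0.05, against 14.0% of all probe sets. SP1 stands in both lists of regulators.

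Of 15 other brakes on the cell cycle 4 rose and 7 fell (median -0.15). CDKN3, a phosphatase of CDK2 that belongs to neither inhibitor family, had a change of -1.63 (SE 0.07, adjusted p = 1.76e-06). PKMYT1, a kinase that inhibits CDK1, was at -0.99 and the pocket protein RBL1 at -0.80, while GADD45G, a stress-induced gene, rose by 0.61 (adjusted p = 0.000585). RB1 (-0.34) fell, and RBL2 (0.03) did not pass. With doxycycline added 0 of 15 passed and 3 had an unadjusted p under 0.05. The medians of these lists stand beside 0.017 over all probe sets with progestin and 0.027 with doxycycline added.

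**Figure D3:**
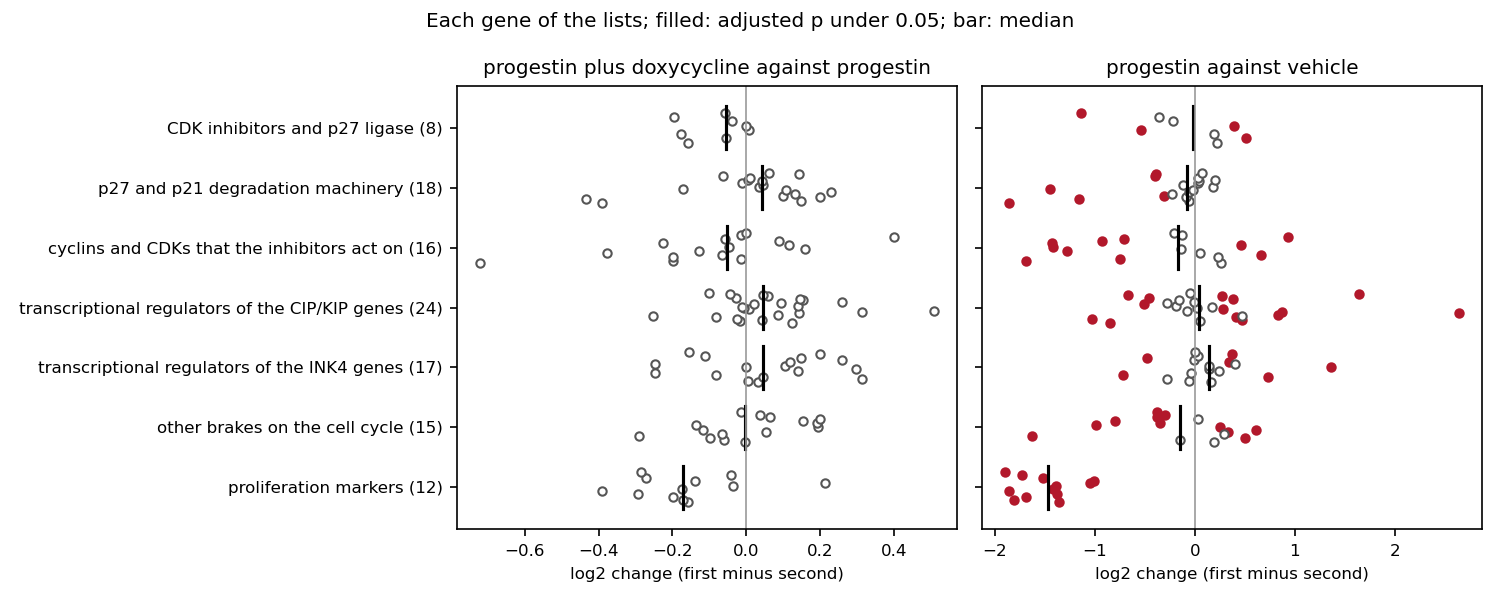
Log2 change (horizontal axis, scales differ between panels) of every measured gene of the 8 inhibitor and ligase genes and of the 6 lists, with list sizes in brackets; the left panel is progestin plus doxycycline against progestin, the right progestin against vehicle, filled points have an adjusted p under 0.05 and bars mark medians. Filled points occur only on the right, where all 12 proliferation markers lie left of -1 and the inhibitors lie on both sides of 0.

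The nearest measured genes on each side of the 9 members were also compared under progestin against vehicle, by gene order in RefSeq. Of 16 such entries that are not themselves members 2 rose and 4 fell, where 13.4% of all probe sets were called higher and 15.6% lower. CDKN2A and CDKN2B, which are next to each other on chromosome 9, had opposite changes (-0.54 and 0.39), while CDKN2A-AS1 (-0.07) and DMRTA1 (0.17) on either side of the pair did not pass. Beside SKP2, LMBRD2 rose by 0.62 and NADK2 was at -0.34 (adjusted p = 0.000928 and 0.0307). Beside CKS1B, SHC1 rose by 0.30 (adjusted p = 0.0199) and FLAD1 was at 0.25 (adjusted p = 0.115), opposite in sign to CKS1B. Beside CDKN1B, GPR19 (0.43, adjusted p = 0.106) and APOLD1 (-0.0033) did not pass. SRSF3 next to CDKN1A (-0.58), KRI1 next to CDKN2D (-0.56) and FAF1 next to CDKN2C (-0.34) fell. RAB44 (-0.05), KCNQ1DN (-0.0071), SLC67A1-AS (0.13), AP1M2 (0.31) and RNF11 (0.19) did not pass.

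Genes whose pattern over the 9 arrays was most like that of a called member were found by Pearson correlation among genes brighter than the median. The arrays share their 3 groups, so any gene with a similar step between the groups scores high. For CDKN1B they were SBDS (r = 0.986), DNAJC5 (0.984) and SLC31A2 (0.983). SKP2 was closest to CMC2 (0.999), INPP5A (0.998) and TBL2 (0.997). For CDKN2A they were MGP (0.988), CLPB (0.983) and PABIR2 (0.983), and for CDKN2B FZD1 (0.987), MEX3B (0.955) and FAM110C (0.950). CMC2, the gene nearest to SKP2, changed by -0.78 with progestin and by -0.06 with doxycycline added.

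**Figure D4:**
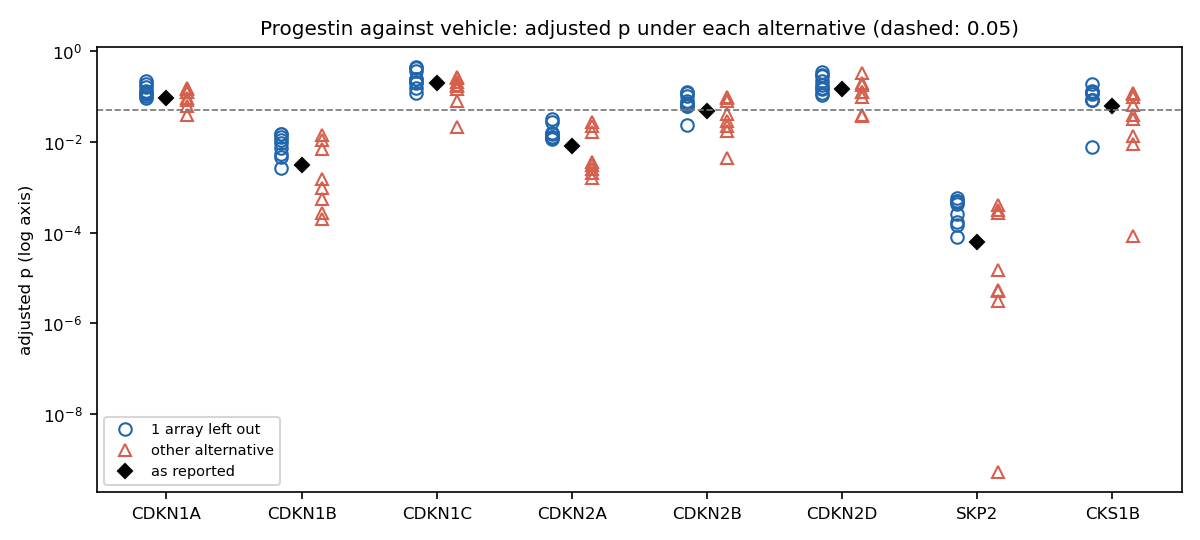
Adjusted p (vertical log axis) of each measured gene in progestin against vehicle, as reported (black diamonds), with 1 array left out (blue circles) and under the other alternatives (red triangles); the dashed line is 0.05. CDKN1B, CDKN2A and SKP2 stay below the line throughout. The other 5 genes lie on both sides of it, CDKN2B and CKS1B with 6 alternatives below it each, CDKN2D with 2, and CDKN1A and CDKN1C with 1 each.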

How the data were processed

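Affymetrix HuGene arrays measured RNA of 9 T47D samples, and the authors deposited 1 log2 value per probe set and sample. Per the submitters' processing notes the tools were limma, PLIER, Affymetrix Power Tools and Affymetrix Expression Console, with no role or version; background correction, normalization and genome build are not given in the sources used here. From the range of the values, the scale was taken to be log2. Of 33297 probe sets, 19460 carry 1 symbol in the platform annotation, 1754 several and 12083 none. All 21214 with a symbol were tested, with no filter on low values; only single-symbol probe sets name a gene, and the one of highest mean stands for it. Groups come from the titles. The model, fitted in limma (3.58.1, R 4.3.3), gave each group its own mean across all 9 arrays, with eBayes and Benjamini-Hochberg adjustment at 0.05. The median standard error of a change was 0.12; the number of arrays limits precision.

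Members, lists and tests were chosen with earlier results of these data known. Named are all members, ELF5 and PGR, up to 4 called genes of smallest p per list (the 2 smallest where none passed), chromosomal neighbours, and the 3 genes of most similar pattern per called member; further list genes were named after their values were seen. PGR was at 9.96 ± 0.09 with progestin plus doxycycline, 9.63 ± 0.04 with progestin and 11.91 ± 0.02 with vehicle (log2, SD, n = 3 each). The fit was tested on simulated data. Alternatives were quantile normalization, leaving out the dimmest 25% of probe sets, a variance trend with robust estimation, array weights, 16 added to linear values, all probe sets, a replicate block, only the groups compared, the mean of a gene's probe sets, and each array left out. RefSeq (GRCh38.p14) supplied gene order and promoters.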

Additional observations from a re-analysis of the deposited data

How the results depend on the processing

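CDKN1B, CDKN2A and SKP2 kept direction and call in progestin against vehicle under all 17 alternatives; CDKN2B passed in 6 of 17 and CKS1B in 6 of 18. In that comparison the count of members higher, 2 as reported, was 1 with all probe sets of the table, with the replicate block and with only the groups compared, 1 to 2 with an array left out, and 3 with quantile normalization (CDKN1A gained, adjusted p = 0.0385) and with array weights (CDKN1C gained, 0.0215). Members lower, 2 as reported, numbered 4 with a variance trend and robust estimation and with array weights, CKS1B and CDKN2D being gained (CDKN2D at adjusted p = 0.0398 and 0.0381), and 3 without the dimmest 25%, with 16 added and with the mean of all probe sets of a gene. With array weights 4683 probe sets were higher, against 2848 as reported. For progestin plus doxycycline against progestin, the 2 probe sets higher and 2 lower became 140 and 18 without the dimmest 25%, 478 and 52 with the variance trend, 11 and 4 with 16 added, 7 and 5 with all probe sets, and 0 and 0 with only the groups compared. Array weights gave 5 higher. With an array left out they were 0 to 2 higher and 0 to 1 lower. For progestin plus doxycycline against vehicle, members higher were 2 instead of 1 without the dimmest 25%, with the variance trend, array weights or 16 added, and 1 to 2 with an array left out. Members lower, 3 as reported, numbered 3 to 4 over all alternatives. CDKN2D passed there in 2 of 17, with a lowest adjusted p of 0.00905. With array weights 4286 probe sets were lower, against 2650. The causes were not tested, beyond the smaller number of arrays or probe sets in some settings.

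Changes of sign occurred only for members that did not pass. With array weights CDKN2A was at -0.070 for doxycycline added to progestin and CDKN1A at -0.048 against vehicle. With an array left out, doxycycline against progestin ranged from -0.11 to 0.072 for CDKN2A, -0.050 to 0.042 for CDKN2B, -0.10 to 0.025 for CDKN2D and -0.14 to 0.0072 for SKP2, and progestin plus doxycycline against vehicle from -0.0071 to 0.12 for CDKN1A and -0.037 to 0.087 for CDKN1C.

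Same-numbered samples of different groups had correlated deviations from -0.26 to 0.48, and differently numbered ones from -0.51 to 0.28. Vehicle and progestin plus doxycycline gave 0.48 for replicate 2 and 0.46 for replicate 3, but -0.10 for replicate 1. Progestin and progestin plus doxycycline gave -0.14, -0.26 and -0.22. With both signs present the numbers were not taken as pairs, though a partial pairing is not excluded. The replicate block left 0 probe sets higher and 0 lower for doxycycline added to progestin, and 1 member higher in progestin against vehicle (CDKN2B at an adjusted p of 0.0973). It changed no other call of a member.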
